A study of Mus musculus with 9 samples.

Results

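The 9 genes Cldn5, Tmem100, Egfl7, Esam, Pecam1, Cdh5, Kdr, Tek and Cd36, which mark blood vessel endothelium, were followed through RNA sequencing libraries of mouse tumour cells that had been sorted by a fluorescent label. They were taken by exact match of the gene symbol and make up 9 of the 23799 genes in the expression table, and each matched 1 row. The deposited table is named CPM, but its values were read as RPKM (a read count divided by gene length and by the library's read total). This reading was inferred from the values, and levels can be compared between genes only if it holds. The submitters describe the sorted profiles as free of stromal contamination.

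The 9 libraries came from a pair of tumour models. In the model of pancreatic ductal adenocarcinoma (PDAC), cells were sorted by YFP and gave 5 libraries: 1 lung metastasis (number 1), 2 liver metastases (numbers 1 and 5) and 2 primary tumours (numbers 1 and 5). All PDAC mice carried p48-Cre, a driver active in the pancreas, with p53F/+, KrasL/+ and the ROSA-LSL-YFP reporter, which labels cells in which Cre has acted and their progeny. Number 1 was taken at 25.67 weeks and also carried SIRT6F/F, whereas number 5 was taken at 28.95 weeks without it, so age and SIRT6 label cannot be told apart from the number. In the breast cancer (BC) model, cells were sorted by GFP from tumours of 4T1-eGFP origin (4T1 being a single mammary carcinoma line of the mouse), collected at 28 days, and gave 4 libraries: 2 lung metastases (numbers 4 and 6) and 2 primary tumours (numbers 1 and 5). The labels do not say that libraries of a BC group came from separate animals, so p-values measure only the spread between these libraries, which may be technical.

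Blood vessels are lined by endothelial cells, which are held together by the adhesion proteins VE-cadherin (Cdh5), PECAM (Pecam1) and ESAM (Esam) and by the tight junction protein claudin (Cldn5). They grow and survive under signals from VEGF, received mainly by the receptor tyrosine kinase KDR, and from angiopoietins, received by TEK. Lung is among the most densely vascularised organs, and Tmem100, a membrane protein gene induced by BMP signalling, and Cd36, a fatty acid transporter and scavenger receptor, are well known in its capillaries. Not all of these genes are restricted to endothelium: Pecam1 is also made by leukocytes and platelets, Esam by platelets, and Cd36 by macrophages, platelets and adipocytes.

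The libraries differed in depth and content. Reads on genes, estimated from the values and gene lengths, ranged from 21300000 to 128000000, lowest in the PDAC lung metastasis. That library also listed the fewest genes above 0 (9530, against up to 20478 in the other libraries). Next came PDAC primary 5 (10410), BC lung metastasis 6 (10938) and PDAC liver metastasis 1 (12144). The other BC libraries listed 18665 to 20478. Haemoglobin genes took 38.6% of the summed RPKM in the PDAC lung metastasis, 38.9% and 20.05% in PDAC liver metastases 1 and 5, and 10.9% and 0.0582% in PDAC primaries 1 and 5. PDAC primary 5 had 0.0247 RPKM of Sdha, a mitochondrial enzyme gene that cells generally use, where the other 8 libraries had 8.26 to 79.7 RPKM, and Tbp, a general transcription factor gene, had 0.0584 RPKM in the PDAC lung metastasis and 0.138 RPKM in PDAC primary 5, where the other 7 libraries had 1.42 to 3.24 RPKM. A value of 0 is therefore read only as listed at 0. Sirt6 was listed at 0 in PDAC lung metastasis 1 and was at 2.91 and 3.49 RPKM in PDAC liver metastasis 1 and PDAC primary 1, which all carry SIRT6F/F, against 2.23 RPKM in PDAC liver metastasis 5 and listed at 0 in PDAC primary 5, which do not, so its level did not follow the label.

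Promoter sequence was at hand for 5 of the 9 genes, in 7 windows, of which 3 are shown because Cldn5 and Cd36 passed the test described below and Egfl7 was the member above 0 in every library. Each runs over the 250 bases before the RefSeq transcript start (build GRCm38.p6, not the mm9 build of the expression values), 5′ to 3′ on the gene's strand, with every match to GGAA or its reverse complement TTCC in capitals. GGAA is the core recognised by ETS factors such as ERG and FLI1, which act widely in endothelial genes. Neighbouring matches may touch or overlap.
Cldn5 chr16:18776597-18776846 (+ strand): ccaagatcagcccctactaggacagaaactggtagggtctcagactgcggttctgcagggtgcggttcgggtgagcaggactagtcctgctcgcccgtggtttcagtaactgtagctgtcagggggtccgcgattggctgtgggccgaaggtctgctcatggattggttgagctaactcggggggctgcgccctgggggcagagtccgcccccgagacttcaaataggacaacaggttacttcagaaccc
Egfl7 chr2:26580833-26581082 (+ strand): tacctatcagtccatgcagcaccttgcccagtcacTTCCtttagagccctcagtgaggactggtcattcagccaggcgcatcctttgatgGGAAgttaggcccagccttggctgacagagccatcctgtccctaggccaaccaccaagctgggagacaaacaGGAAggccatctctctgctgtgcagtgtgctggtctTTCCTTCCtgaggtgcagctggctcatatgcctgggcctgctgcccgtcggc
Cd36 chr5:17835897-17836146 (- strand): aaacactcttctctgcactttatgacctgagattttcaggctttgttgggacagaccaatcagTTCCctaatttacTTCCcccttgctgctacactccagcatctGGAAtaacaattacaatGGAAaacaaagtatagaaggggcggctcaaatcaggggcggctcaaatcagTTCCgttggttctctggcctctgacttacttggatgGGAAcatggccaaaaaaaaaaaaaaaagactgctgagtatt
The windows of Cldn5, Egfl7 and Cd36 held 0, 5 and 6 matches to GGAA. The other Egfl7 starts held 3 and 1, Kdr 4 and Tek 2. Of 32851 windows of the same length, 93.4% held at least 1 match, with a median of 3 and a 90th percentile of 5. The longer form AGGAAG (or CTTCCT) occurred 3 times in the first Egfl7 window and once in the next, which starts at position 26583615, and was not found in the windows of Cldn5, Cd36, Kdr and Tek. It was present in 29.5% of all windows. A match describes letters in a window only.

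Every member was above 1 RPKM in the PDAC lung metastasis, and no other library had more than 4 of the 9 above that level. The count was 3 and 4 in PDAC liver metastases 1 and 5, 1 and 0 in PDAC primaries 1 and 5, 3 and 2 in BC lung metastases 4 and 6, and 1 and 4 in BC primaries 1 and 5. Of all 23799 genes, 6360 were at 1 RPKM or more in the PDAC lung metastasis. In PDAC liver metastases 1 and 5 they numbered 8389 and 10911, and in PDAC primaries 1 and 5 10569 and 6369. In BC they numbered 10217 and 6644 in lung metastases 4 and 6 and 9824 and 10980 in primaries 1 and 5. Summed over the 9 genes, the level was 1186 RPKM in the PDAC lung metastasis, 56.1 and 15.5 RPKM in PDAC liver metastases 1 and 5, and 4.65 and 0.0170 RPKM in PDAC primaries 1 and 5. It was 8.93 and 29.9 RPKM in BC lung metastases 4 and 6 and 8.07 and 11.5 RPKM in BC primaries 1 and 5. Of the 5 most defining markers (Pecam1, Cdh5, Kdr, Tek and Cldn5), all 5 were at 1 RPKM or more in the PDAC lung metastasis, at most 2 in any other library, and all 5 were listed at 0 in PDAC primary 5. The PDAC lung metastasis was thus the highest library by this sum and the shallowest by reads. In such bulk samples, the number of cells that make these RNAs and the RNA per cell cannot be told apart. Which cells the RNA came from was not tested.

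**Figure D1:**
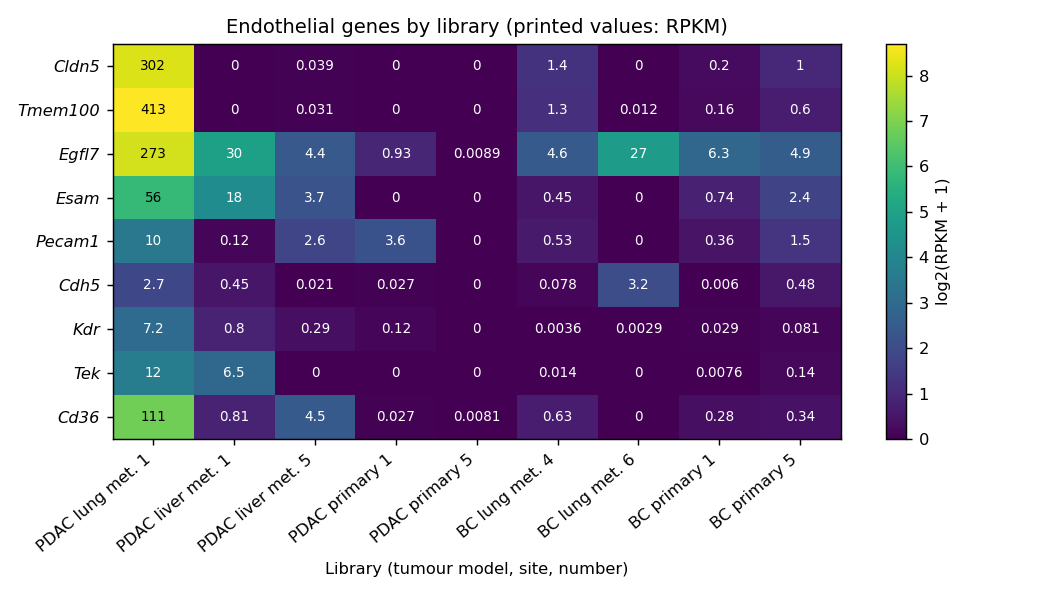
Level of each of the 9 endothelial genes (rows) in each of the 9 libraries (columns); colour gives log2(RPKM + 1) and the printed values are RPKM, with 0 meaning listed at 0. The PDAC lung metastasis column is the highest for every gene other than Cdh5, with 2.67 RPKM there and 3.19 RPKM in BC lung metastasis 6.

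Among the junction and adhesion genes, Cldn5 stood at 302 RPKM in the PDAC lung metastasis (about 5455 reads), at 0 and 0.0389 RPKM in PDAC liver metastases 1 and 5, and listed at 0 in both PDAC primaries. In the BC model it was at 1.41 and 0 RPKM in lung metastases 4 and 6 and at 0.202 and 1.0145 RPKM in primaries 1 and 5. The PDAC lung metastasis was 214 times the next highest library, and the BC lung metastases lay on either side of both BC primaries.

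Esam, which encodes an immunoglobulin-type adhesion molecule of endothelial tight junctions, stood at 56.1 RPKM in the PDAC lung metastasis, at 17.8 and 3.65 RPKM in PDAC liver metastases 1 and 5, and listed at 0 in both PDAC primaries. In BC it was at 0.454 and 0 RPKM in lung metastases 4 and 6 and at 0.740 and 2.43 RPKM in primaries 1 and 5. The PDAC metastases were thus above both PDAC primaries, and the BC lung metastases lay below both BC primaries. How many of all genes fell in such an order was not counted, so the order only describes these values. PDAC primary 5 and BC lung metastasis 6 listed 7 and 5 of the 9 members at 0.

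Pecam1 stood at 10.1 RPKM in the PDAC lung metastasis, at 0.121 and 2.56 RPKM in PDAC liver metastases 1 and 5, and at 3.55 and 0 RPKM in PDAC primaries 1 and 5. The PDAC liver metastases and primaries overlapped. In BC, Pecam1 was at 0.528 and 0 RPKM in lung metastases 4 and 6 and at 0.362 and 1.51 RPKM in primaries 1 and 5. Cdh5, the most specific endothelial cadherin gene, was low throughout: 2.67 RPKM in the PDAC lung metastasis, 0.450 and 0.0207 RPKM in PDAC liver metastases 1 and 5, and 0.0266 and 0 RPKM in PDAC primaries 1 and 5. In BC it was at 0.0784 and 3.19 RPKM in lung metastases 4 and 6 and at 0.00598 and 0.477 RPKM in primaries 1 and 5. The 2 libraries with the highest Cdh5, BC lung metastasis 6 and the PDAC lung metastasis, differed in the rest of the set: BC lung metastasis 6 listed Cldn5, Esam, Pecam1, Tek and Cd36 at 0. Whether this follows from the few genes listed in BC lung metastasis 6 (10938 above 0) was not tested.

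Of the receptor tyrosine kinases, Tek stood at 11.8 RPKM in the PDAC lung metastasis, at 6.52 and 0 RPKM in PDAC liver metastases 1 and 5, and listed at 0 in both PDAC primaries. It did not exceed 0.144 RPKM in any BC library and was listed at 0 in BC lung metastasis 6. Tek therefore separated PDAC liver metastasis 1 from PDAC liver metastasis 5 by more than any difference among the BC libraries. Kdr stood at 7.20 RPKM in the PDAC lung metastasis, at 0.795 and 0.287 RPKM in PDAC liver metastases 1 and 5, and at 0.117 and 0 RPKM in PDAC primaries 1 and 5. In BC it was at 0.00358 and 0.00294 RPKM in lung metastases 4 and 6 and at 0.0295 and 0.0807 RPKM in primaries 1 and 5, levels of at most about 95.5 reads.

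Egfl7 encodes a secreted protein of endothelial cells, and its gene also hosts the microRNA miR-126. It stood at 273 RPKM in the PDAC lung metastasis, at 29.5 and 4.38 RPKM in PDAC liver metastases 1 and 5, and at 0.925 and 0.00891 RPKM in PDAC primaries 1 and 5. In BC it was at 4.56 and 26.7 RPKM in lung metastases 4 and 6 and at 6.29 and 4.88 RPKM in primaries 1 and 5. It was the only member above 0 in all 9 libraries (about 1 read in PDAC primary 5), and the BC lung metastases lay on either side of the primaries.

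Tmem100 had the highest level of any member in any library, 413 RPKM in the PDAC lung metastasis, where it ranked 176th of all genes. It was at 0 and 0.0311 RPKM (2 reads) in PDAC liver metastases 1 and 5 and listed at 0 in both PDAC primaries. In BC it was at 1.26 and 0.0121 RPKM in lung metastases 4 and 6 and at 0.155 and 0.600 RPKM in primaries 1 and 5, in the same order as Cldn5. Cd36 stood at 111 RPKM in the PDAC lung metastasis, at 0.810 and 4.49 RPKM in PDAC liver metastases 1 and 5, and at 0.0270 and 0.00813 RPKM in PDAC primaries 1 and 5. In BC it was at 0.630 and 0 RPKM in lung metastases 4 and 6 and at 0.279 and 0.340 RPKM in primaries 1 and 5. The BC primaries lay between the BC lung metastases.

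The members thus did not rise and fall as 1 block. The share of the 9-library sum held by the PDAC lung metastasis was 99.5% for Tmem100, 99.1% for Cldn5 and 94.4% for Cd36, and 54.0% for Pecam1. Its share was lowest for Cdh5, for which BC lung metastasis 6 held the largest share (46.1%). The leading member was Tmem100 in the PDAC lung metastasis, Pecam1 in PDAC primary 1 and Cd36 in PDAC liver metastasis 5, and Egfl7 in the other 6 libraries. Over all 9 libraries the 36 pairs of members had a median Pearson r of 0.74 in log2(RPKM + 1), and all 36 were positive. Over the 8 libraries without the PDAC lung metastasis the median was -0.00 and 18 pairs were negative, so the common pattern rested on that library. The highest of the pairs were then Cldn5 with Tmem100 (0.98), Esam with Kdr (0.92), Kdr with Tek (0.91) and Esam with Tek (0.84). They leaned on few libraries: among these 8, Esam, Kdr and Tek were each highest in PDAC liver metastasis 1. Cldn5 and Tmem100 were highest in BC lung metastasis 4 and BC primary 5, at only 0.600 to 1.41 RPKM. These values are descriptions over libraries that differ in depth.

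The PDAC lung metastasis was next set against the primary tumours of that model. The lung library is number 1 and the primaries are numbers 1 and 5, so site is mixed with age and SIRT6 label. Cldn5, Tmem100 and Cd36 were higher and 3 of the 9 members were called, 8 having been tested, whereas 0.171% of the 12832 genes tested were called higher and 0.413% lower (0.584% together). Calls were made at an adjusted p under 0.05 with limma, and the members were known to hold called genes when they were chosen. The difference on the log2(RPKM + 1) scale was 8.24 ± 1.00 for Cldn5 (SE, n = 1 against 2; limma adjusted p = 0.0335), 8.69 ± 0.98 for Tmem100 (limma adjusted p = 0.0250) and 6.78 ± 1.07 for Cd36 (limma adjusted p = 0.0348). For Cldn5 and Tmem100, both listed at 0 in the primaries, the size is set by the added 1 and is no fold change. With no replicate of the lung library, its spread was taken to be that of the other groups. Without PDAC primary 5, number 1 was set against number 1, which share age and SIRT6 label. The differences were then 8.24 for Cldn5, 8.69 for Tmem100 and 6.77 for Cd36, from 1 library on each side. The part of age and SIRT6 label was not tested. Of the 8 tested members, Tmem100, Cdh5, Tek and Cd36 passed the filter on low values with the PDAC lung metastasis as 1 of only 2 libraries at 1 RPKM or more, so their level there was part of what let them be tested.

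The other tested members had differences of 7.62 ± 1.55 for Egfl7 (limma adjusted p = 0.0608), 5.84 ± 1.26 for Esam (0.0702), 3.68 ± 1.07 for Tek (0.157), 2.39 ± 1.19 for Pecam1 (0.424) and 1.86 ± 0.85 for Cdh5 (0.379), and none of these 5 passed. At an unadjusted p under 0.05, 6 members were higher and 0 lower, beside 5.78% and 7.97% of all tested genes. Kdr reached 1 RPKM in a single library and was not tested. Without the filter on low values its difference was 2.96 ± 0.38 (limma adjusted p = 0.0311 over 23633 genes), and 4 members were called. The median difference of all genes was -0.50, so the 8 positive differences stood above a downward shift. That median was -0.58 after rescaling without haemoglobin and -0.05 with quantile scaling, and all 8 were positive under both.

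The 3 calls did not hold under every alternative. With a pseudocount of 0.1 in place of 1, 2 members were called and Cd36 was not (limma adjusted p = 0.0554; 0.0122 to 0.645 over its 15 alternatives). With PDAC libraries of the same number treated as a block, 0 members were called, and Cldn5, Tmem100 and Cd36 each had a limma adjusted p of 0.106 (for Cldn5, 0.00852 to 0.610 over its 15 alternatives). Leaving out either BC primary, either BC lung metastasis or PDAC liver metastasis 5 also gave 0 members, without PDAC primary 1 it gave 5, without PDAC liver metastasis 1 it gave 4, and the differences of Cldn5, Tmem100 and Cd36 stayed between 6.77 and 8.69 when any 1 of the other 8 libraries was left out.

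**Figure D2:**
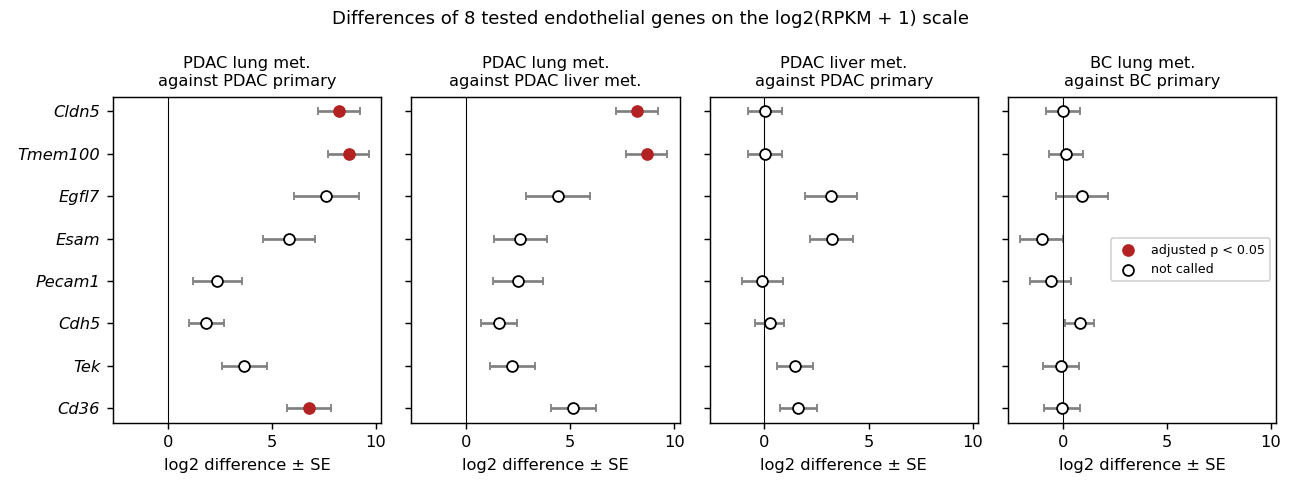
Difference of the 8 tested endothelial genes in 4 comparisons, on the log2(RPKM + 1) scale with limma standard errors; filled points passed an adjusted p under 0.05. Cldn5 and Tmem100 lie above 8 in both comparisons of the PDAC lung metastasis and near 0 in PDAC liver metastases against primaries and in BC lung metastases against primaries.

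Against the PDAC liver metastases, the PDAC lung metastasis was higher in Cldn5 (8.21 ± 1.00, SE, n = 1 against 2; limma adjusted p = 0.0295) and Tmem100 (8.67 ± 0.98; limma adjusted p = 0.0295). These were 2 of the 9 members, with 0.0234% of all tested genes called higher, which is 3 genes in all. Cd36 differed by 5.15 ± 1.07 (limma adjusted p = 0.0790) and Egfl7 by 4.42 ± 1.55 (0.323). Tek differed by 2.23 ± 1.07, Esam by 2.61 ± 1.26, Pecam1 by 2.48 ± 1.19 and Cdh5 by 1.59 ± 0.85, with limma adjusted p from 0.504 to 0.556. At an unadjusted p under 0.05, 4 members were higher and 0 lower, beside 2.66% and 7.99% of all tested genes. This comparison uses the same lung library as the one before, and again sets number 1 against numbers 1 and 5. Neither call held with the block: for Cldn5 the limma adjusted p was then 0.119, within 0.0106 to 0.843 across its 15 alternatives. Likewise 0 members were called without any 1 BC library or either PDAC liver metastasis.

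PDAC liver metastases against PDAC primaries gave another order of the members. Esam (3.23 ± 1.03, SE, n = 2 against 2) and Egfl7 (3.20 ± 1.27) had the highest differences, followed by Cd36 (1.63 ± 0.87) and Tek (1.46 ± 0.87). These values depended on which liver library was used: without PDAC liver metastasis 1, Egfl7 was at 1.95, Esam at 2.22, Cd36 at 2.43 and Tek at 0, and without PDAC liver metastasis 5, Egfl7 was at 4.45, Esam at 4.24, Cd36 at 0.83 and Tek at 2.91. Cdh5 (0.26 ± 0.70), Cldn5 (0.03 ± 0.82), Tmem100 (0.02 ± 0.80) and Pecam1 (-0.09 ± 0.97) were near 0. None passed, with limma adjusted p from 0.520 for Esam to 1, against 0.00779% of all tested genes called higher and a median difference of all genes of 0.08. At an unadjusted p under 0.05, Egfl7 (0.0296) and Esam (0.0103) were 2 of the 9 members, with 4.89% of all tested genes higher and 1.5% lower at that level. Cldn5 and Tmem100 turned negative with quantile scaling (-0.13 each). The PDAC primaries are shared with the lung comparison.

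BC lung metastases against BC primaries showed no called member and no called gene: 0% of the 12832 genes passed, and 0.881% were higher and 1.18% lower at an unadjusted p under 0.05. Egfl7 (0.92 ± 1.27, SE, n = 2 against 2), Cdh5 (0.80 ± 0.70) and Tmem100 (0.15 ± 0.80) had positive differences, and Esam (-1.02 ± 1.03), Pecam1 (-0.58 ± 0.97), Tek (-0.09 ± 0.87), Cd36 (-0.04 ± 0.87) and Cldn5 (-0.00 ± 0.82) negative ones, against a median of all genes of -0.29. With quantile scaling Tek, Cd36 and Cldn5 turned positive. The limma adjusted p lay between 0.974 and 1, and the unadjusted p between 0.277 and 0.996, so 0 members were below 0.05. The positive values of Egfl7 and Cdh5 came from BC lung metastasis 6, and without it they were -0.24 and -0.18.

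The lung difference was then compared between the models, as the PDAC lung metastasis minus PDAC primaries less the same difference in BC. Its PDAC part mixes site with age and SIRT6 label, as above. The value was 8.54 ± 1.27 for Tmem100, 8.25 ± 1.30 for Cldn5, 6.82 ± 1.38 for Cd36, 6.85 ± 1.63 for Esam, 6.69 ± 2.00 for Egfl7, 3.77 ± 1.38 for Tek, 2.97 ± 1.54 for Pecam1 and 1.05 ± 1.10 for Cdh5. None passed: the limma adjusted p was 0.148 for Tmem100 and Cldn5 and 0.154 to 0.815 for the others, and 0% of all tested genes were called. At an unadjusted p under 0.05, 4.31% of all tested genes were higher and 4.63% lower, and 6 members were higher (4.42e-05 for Tmem100 to 0.0204 for Tek). Without PDAC primary 1, 3 members passed.

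PDAC primaries against BC primaries likewise gave 0 called members, with 0.0312% of all tested genes called higher and 0% lower, and 0 members at an unadjusted p under 0.05, where 3.76% of all tested genes were higher and 9.43% lower. The differences ranged from -2.23 ± 1.27 for Egfl7 to 0.21 ± 0.97 for Pecam1 (SE, n = 2 against 2). Pecam1 was at 3.55 RPKM in PDAC primary 1 and listed at 0 in PDAC primary 5. The limma adjusted p lay between 0.475 and 0.973. The median of all genes was -0.31 here, -0.74 after rescaling without haemoglobin and 0.05 with quantile scaling, and 1, 0 and 4 of the 8 tested members were positive under these scalings.

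Other genes of endothelial identity reached 1 RPKM most often in the PDAC lung metastasis. Of 25 such genes, 18 were at 1 RPKM or more in the PDAC lung metastasis, 14 and 8 in PDAC liver metastases 1 and 5, 8 and 1 in PDAC primaries 1 and 5, 10 and 7 in BC lung metastases 4 and 6, and 6 and 9 in BC primaries 1 and 5. Over all 23799 genes, the PDAC lung metastasis had the fewest at that level (6360) and BC primary 5 the most (10980). The PDAC lung metastasis listed 5 of the 25 at 0 (Erg, Nos3, Tal1, Sox7 and Aplnr), against 4 and 3 at 0 in PDAC liver metastases 1 and 5, 9 and 18 in PDAC primaries 1 and 5, 4 and 16 in BC lung metastases 4 and 6, and 1 and 0 in BC primaries 1 and 5. Plvap, which forms the diaphragms of fenestrae and caveolae, stood at 225 RPKM in the PDAC lung metastasis, 54.3 and 3.12 RPKM in PDAC liver metastases 1 and 5 and 1.56 and 0.0158 RPKM in PDAC primaries 1 and 5. Gpihbp1, the capillary anchor of lipoprotein lipase, stood at 193 RPKM in the PDAC lung metastasis, 142 and 4.11 RPKM in PDAC liver metastases 1 and 5 and 3.07 and 0 RPKM in PDAC primaries 1 and 5. Both were thus high in PDAC liver metastasis 1, as were Esam, Egfl7 and Tek. Ecscr went another way: it stood at 75.6 RPKM in the PDAC lung metastasis and had 252 RPKM in PDAC primary 5, where Pecam1, Cdh5, Kdr, Tek and Cldn5 were all listed at 0. Of the 16 genes tested, 16 were positive in the PDAC lung metastasis against primaries (median 3.20, against -0.50 and 33.7% positive over all genes), and 0 were called. In the PDAC liver comparison 13 of 16 were positive (median 1.36) and in the BC lung comparison 7 of 16 (median -0.19), with 0 called in each.

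Of 11 lung capillary genes, 7 were at 1 RPKM or more in the PDAC lung metastasis, Ednrb and Fibin were listed at 0, and Bmpr2 and Apln were at 0.134 and 0.0249 RPKM. Of 9 tested, 7 were positive against PDAC primaries (median 3.78) and 3 were called, Hpgd, Tbx2 and Calcrl, where 0.171% of all tested genes were called higher. None of the 3 was called with the replicate block, under which 0 of all genes passed. Bmpr2 had a difference of -0.61 ± 0.84 against PDAC primaries, and Ednrb one of -1.60 ± 0.65 against PDAC liver metastases (limma adjusted p = 0.761 and 0.415). Hpgd, which inactivates prostaglandins and is also made by other lung cells, stood at 588 RPKM in the PDAC lung metastasis, 35.2 and 5.74 RPKM in PDAC liver metastases 1 and 5, and 0 and 0.0371 RPKM in PDAC primaries 1 and 5. The carbonic anhydrase gene Car4 stood at 310 RPKM in the PDAC lung metastasis, 0 and 0.601 RPKM in PDAC liver metastases 1 and 5, and 27.4 and 0 RPKM in PDAC primaries 1 and 5. Acvrl1, a BMP receptor of endothelium, stood at 12.8 RPKM in the PDAC lung metastasis, at 2.28 and 19.9 RPKM in PDAC liver metastases 1 and 5, and at 0.00498 and 0.00748 RPKM in PDAC primaries 1 and 5, so PDAC liver metastasis 5 was above the lung library. Tbx2 and Calcrl are named because they were called, after their values were seen, with differences of 4.38 ± 0.76 and 5.45 ± 0.91 (limma adjusted p = 0.0378 for each). Tbx2 reached 1 RPKM in only 2 libraries, the PDAC lung metastasis and BC primary 5, so its level in the lung library was part of what let it be tested. In BC lung metastases 4 and 6 the list summed to 6.82 and 0.0520 RPKM, against 9.11 and 16.3 RPKM in primaries 1 and 5. By this sum both BC metastases lay below both primaries. The sum leaned on Apln, the only listed gene at 1 RPKM or more in BC primary 1. Its difference was -2.44 ± 0.74 (limma adjusted p = 0.974). Of the 9 tested genes, 2 were positive in the BC lung comparison (median -0.17), Hpgd (0.47 ± 1.11) and Car4 (0.20 ± 1.42), and 0 were called. BC lung metastasis 6 listed 8 of the 11 at 0, so the order of the sums only describes these values.

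Genes of liver sinusoidal endothelium, the fenestrated lining of liver capillaries, summed to 188 RPKM in the PDAC lung metastasis, 203 and 56.4 RPKM in PDAC liver metastases 1 and 5, and 82.5 and 0.0807 RPKM in PDAC primaries 1 and 5. Similar sums came from different genes. Of the 12 genes, the PDAC lung metastasis had 4 at 1 RPKM or more and listed 8 at 0, Stab1 and Stab2 among them. PDAC liver metastases 1 and 5 had 9 and 4 at 1 RPKM or more and listed 2 each at 0. PDAC primaries 1 and 5 had 3 and 0 at that level and listed 5 and 11 at 0. The lectin gene Clec4g had 22.6 RPKM in the PDAC lung metastasis, 96.2 and 3.17 RPKM in PDAC liver metastases 1 and 5, and 0.00863 and 0 RPKM in PDAC primaries 1 and 5. Lyve1, also a lymphatic gene, was highest in the PDAC lung metastasis at 95.6 RPKM. Fcgr2b, which leukocytes also express, was at 56.1 and 46.3 RPKM in PDAC liver metastases 1 and 5 and at 78.2 and 0 RPKM in PDAC primaries 1 and 5. Of 6 tested genes 5 were positive in the PDAC liver comparison (median 1.80) and 0 were called. PDAC liver metastasis 1, with the higher sinusoidal sum, was also the liver library with the higher Egfl7, Esam and Tek, while PDAC liver metastasis 5 had the higher Pecam1 and Cd36.

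Lymphatic genes were near 0 outside the PDAC lung metastasis, where Flt4, a receptor for lymphatic VEGF, was at 7.21 RPKM and Mmrn1 at 8.31 RPKM. Prox1, the defining lymphatic regulator, was listed at 0 there, and none of the 5 genes found passed the filter. Of the 15 VEGF, angiopoietin and Notch ligand and receptor genes, 12 were tested, 5 were positive in the PDAC lung metastasis against primaries (median 0.00) and 0 were called. The ligand gene Vegfa stood at 16.2 RPKM in the PDAC lung metastasis, 21.6 and 8.35 RPKM in PDAC liver metastases 1 and 5, and 11.6 and 31.2 RPKM in PDAC primaries 1 and 5, so it did not follow the members. Vegfb stood at 0.390 RPKM in the PDAC lung metastasis, against 13.7 and 110 RPKM in PDAC primaries 1 and 5. Pgf stood at 47.5 RPKM in the PDAC lung metastasis, against 12.0 and 0 RPKM in PDAC primaries 1 and 5.

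Markers of other cell types also differed between these libraries. Alveolar and airway genes summed to 36153 RPKM in the PDAC lung metastasis, of which the surfactant gene Sftpc made 34207 RPKM, against 19.3 and 90.4 RPKM in PDAC liver metastases 1 and 5 and 35.5 and 482 RPKM in PDAC primaries 1 and 5. In that library 7 of the 9 genes were at 1 RPKM or more, and Sftpc and the club cell gene Scgb1a1 were called against PDAC primaries, though not with the replicate block. In BC these genes summed to 41.4 and 43.5 RPKM in lung metastases 4 and 6, against 2.55 and 2.36 RPKM in primaries 1 and 5. The 9 endothelial genes summed to 8.93 and 29.9 RPKM there, against 8.07 and 11.5 RPKM in the primaries. Macrophage genes summed to 11011 RPKM in the PDAC lung metastasis, with all 12 at 1 RPKM or more, 11772 and 9370.5 RPKM in PDAC liver metastases 1 and 5, and 2439 and 768 RPKM in PDAC primaries 1 and 5. Platelet genes summed to 205 RPKM in the PDAC lung metastasis, 469 and 530 RPKM in PDAC liver metastases 1 and 5, and 49.7 and 56.9 RPKM in PDAC primaries 1 and 5. The platelet sum was mostly Pf4, a platelet chemokine, at 95.5 RPKM in the PDAC lung metastasis and 442 and 377 RPKM in PDAC liver metastases 1 and 5. Other platelet genes had another order: Ppbp had 76.8 RPKM in the PDAC lung metastasis and 21.5 and 44.2 RPKM in PDAC liver metastases 1 and 5, and Gp9 had 5.50 RPKM in the PDAC lung metastasis and 0 and 33.6 RPKM in PDAC liver metastases 1 and 5. Pan-leukocyte genes summed to 1302 RPKM in the PDAC lung metastasis, 626.5 and 3060 RPKM in PDAC liver metastases 1 and 5, and 1558 and 60.5 RPKM in PDAC primaries 1 and 5.

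Adipocyte genes, listed because Cd36 is one of their transporters, summed to 80.2 RPKM in the PDAC lung metastasis, 92.2 and 33.7 RPKM in PDAC liver metastases 1 and 5, and 8.01 and 1.63 RPKM in PDAC primaries 1 and 5. Of 9 mural cell genes 7 were listed at 0 in the PDAC lung metastasis, among them the pericyte genes Pdgfrb, Rgs5 and Cspg4, while the smooth muscle actin gene Acta2 was at 89.0 RPKM. Epithelial genes of the tumour cells summed to 132 RPKM in the PDAC lung metastasis, 6675 and 255 RPKM in PDAC liver metastases 1 and 5, and 2226 and 16559 RPKM in PDAC primaries 1 and 5, the reverse of the endothelial order at its ends. In BC the epithelial sums were 4160 and 5805 RPKM in lung metastases 4 and 6 and 5579 and 2959 RPKM in primaries 1 and 5, and macrophage sums 490 and 298 RPKM in the lung metastases and 414 and 620 RPKM in the primaries. Hepatocyte genes summed to 8.54 RPKM in the PDAC lung metastasis, 930 and 2421 RPKM in PDAC liver metastases 1 and 5, and 1.92 and 248 RPKM in PDAC primaries 1 and 5. In PDAC primary 5 that sum was nearly all Apoa1 (245 RPKM). The part of these cell types in the endothelial values was not tested.

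**Figure D3:**
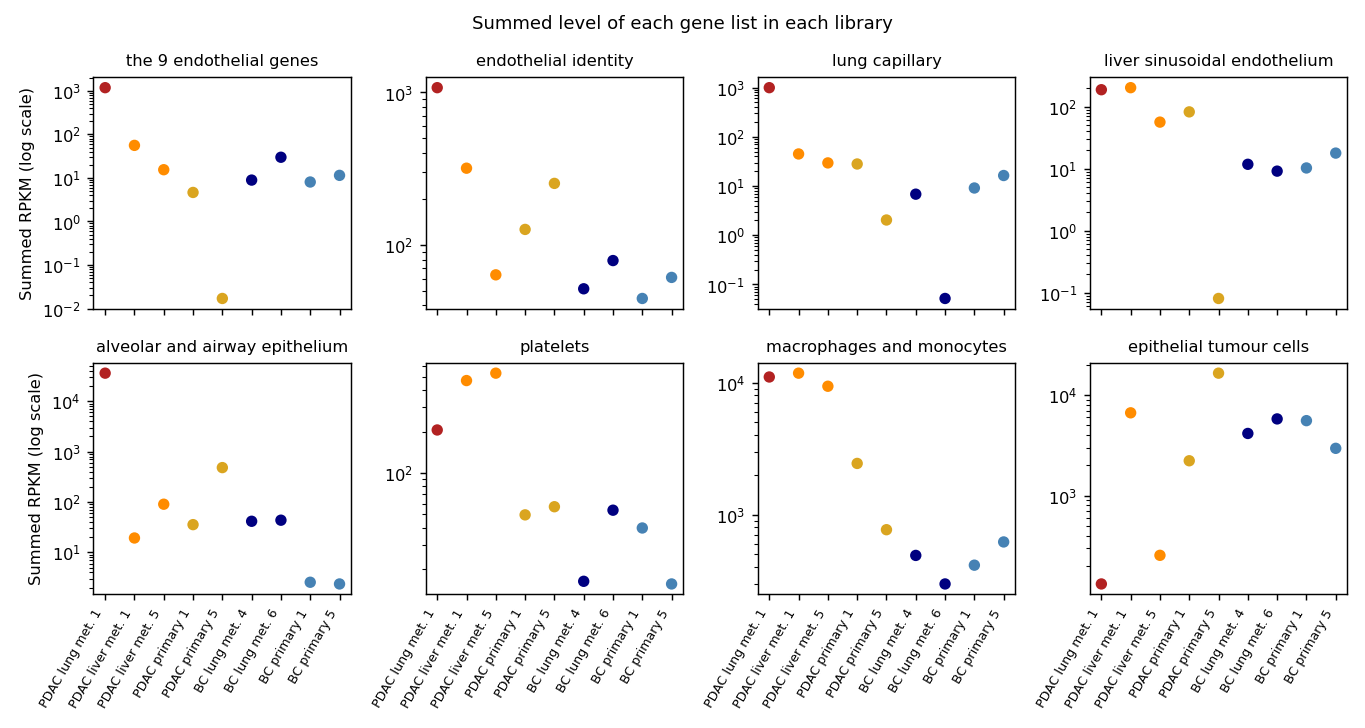
Summed RPKM (log scale, a separate axis in each panel) of 8 gene lists in each of the 9 libraries, coloured by tumour model and site. The 9 endothelial genes sum to 1186 RPKM in the PDAC lung metastasis, where alveolar genes reach 36153 RPKM and epithelial tumour genes are at their lowest, 132 RPKM.

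Genes whose level followed the members most closely were ranked by Pearson correlation, over the 9 libraries, with the mean of the members' scaled log2 levels. Among 12824 genes the 10 closest were Sfta2 (0.98), 2600006L11Rik (0.98), Calcrl (0.97), Galntl4 (0.97), Armcx4 (0.97), Lyve1 (0.96), Nod2 (0.96), Zfp641 (0.96), Ramp2 (0.96) and Tmem204 (0.95). Sfta2, 2600006L11Rik, Galntl4, Armcx4 and Tmem204 reached 1 RPKM only in the PDAC lung metastasis and PDAC liver metastasis 1. Their level in the lung library was thus part of what let them be ranked, so their likeness to the members was partly set by the filter. Sfta2, a surfactant-associated gene, stood at 19.4 RPKM in the PDAC lung metastasis, 1.39 and 0.0253 RPKM in PDAC liver metastases 1 and 5 and listed at 0 in both PDAC primaries. Calcrl and Ramp2 encode the subunits of the adrenomedullin receptor, and Ramp2 stood at 280 RPKM in the PDAC lung metastasis, 9.66 and 0.358 RPKM in PDAC liver metastases 1 and 5 and 1.15 and 0 RPKM in PDAC primaries 1 and 5. Zfp641 was written as exactly 1 in 8 libraries and 2.41 in the PDAC lung metastasis. It is 1 of 11 genes with an exact 1 in 5 to 8 libraries, so its place in the ranking cannot be read as a measured likeness.

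Without the PDAC lung metastasis the ranking over the other 8 libraries changed completely: its 10 closest genes, Man2a1 (0.93), Mob1b (0.93), Fhod1 (0.92), Diap3 (0.91), Vopp1 (0.91), 3110043O21Rik (0.90), Sord (0.90), Ccdc45 (0.89), 5430417L22Rik (0.89) and Snrnp35 (0.89), included none of the first 10 and none of the listed endothelial genes. Over 0.9 lay 62 genes with the lung library and 6 without it.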

How the data were processed

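RNA sequencing measured expression in 9 libraries of sorted mouse tumour cells, 1 or 2 per tumour model and site, grouped by their titles. Per the labels' protocols, cDNA was made with SMART-seq v4 and libraries with Nextera XT; this chemistry does not mark strand, so reads of a gene and of an overlapping antisense gene cannot be told apart. Per the submitters' processing notes, mm9 was the genome build; aligner, counter and annotation are not given in the sources used here. Values lie in 1 table, deposited by the authors and named CPM, but its columns differ in sum, and low values (under 20 reads) came out whole, within 0.02, for 62.8 to 74.4% of values after multiplication by GENCODE M21 exonic length (found for 93.0% of genes). The deposited values were therefore read as RPKM, and reads per gene are estimates. No counting intervals are given for this reason. The read total inferred from the low values was below the estimated reads on genes in every library other than BC primary 5. A read total cannot be lower than the reads on genes, so the estimates or the reading as RPKM are inexact.

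After adding 1 and taking log2, the 12832 genes that reached 1 RPKM in 2 or more libraries were fitted with limma 3.58.1 (in R 4.3.3, with statmod 1.5.0), using the trend and robust options. All 9 libraries entered 1 fit of group means, which left 4 degrees of freedom beside a median prior of 6.17. Tests were two-sided and Benjamini-Hochberg adjusted over all genes. The fit was also run on simulated normal values with known added differences. That simulation did not model differences in depth between libraries, so it is no test of differences from values listed at 0. Of the 9 genes, Kdr did not pass the filter. No batch is labelled. The submitters call metastases matched, and PDAC libraries of 1 number share age and genotype labels. The numbers were therefore taken to pair mice in the replicate block, but the reported fit did not use this pairing. The deviations of PDAC primary 1 and liver metastasis 1 had a correlation of -0.165 over genes. Named genes were the 9 members in every comparison, the 3 genes of each list with the highest mean log2 level, and the 10 genes closest to the members; other cell types' lists are given mainly as sums, and genes named from them because they were called or listed at 0 were chosen after their values were seen. All members, lists and tests were chosen with earlier results of these data known. Of the listed symbols, Ccl21a, Hbb-bs, Hbb-bt, Adgre1, Plin1 and Tf were not used here. Alternatives were the pseudocount (0.1), no filter, quantile scaling, rescaling without haemoglobin, no trend and robust options, the replicate block, each model alone, each library left out, and the 3 libraries with the fewest genes left out. Promoter windows came from RefSeq, GRCm38.p6. Python 3.11.15 and matplotlib 3.10.9 were used for summaries and plots.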

Additional observations from a re-analysis of the deposited data

How the results depend on the processing

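Members called in the PDAC lung metastasis against primaries numbered 3, and 2 with a pseudocount of 0.1, 4 without the filter, 0 without trend and robust moderation, 0 with the replicate block and 0 with PDAC libraries alone; leaving out each library gave 0 to 5. Against the PDAC liver metastases the 2 calls became 1 when rescaled without haemoglobin, 1 without trend and robust moderation, 0 with the replicate block and 0 with PDAC libraries alone, and 0 to 3 when leaving out each library. The difference of the lung effects gave 0, 2 without the filter, and 0 to 3 when leaving out each library. The block changed no other member's call. All genes called in the lung comparison numbered 75, 270 with a pseudocount of 0.1, 161 with quantile scaling, 251 without the filter, 0 without trend and robust moderation, with the block or with PDAC libraries alone, and 0 to 1504 when leaving out each other library. Over all alternatives run, all genes called numbered 0 to 326 in PDAC lung against liver metastases (4 as reported), 0 to 965 in PDAC liver metastases against primaries (1), 0 to 792 in PDAC against BC primaries (4), 0 to 328 for the difference of lung effects (0) and 0 to 9 in BC lung metastases against primaries (0). The other comparisons called 0 members under every alternative run, and the direction of the 8 tested members held under every alternative run in the comparisons of the PDAC lung metastasis, which could not be run without that library. The cause of the changes was not tested.

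Signs turned in 3 comparisons, all without a call (log2 differences). In BC lung against primary, quantile scaling gave Cldn5 0.25, Tek 0.16 and Cd36 0.17; a pseudocount of 0.1 gave Tmem100 -0.11; leaving out the 3 libraries with the fewest genes gave Cldn5 0.63, Egfl7 -0.24, Cdh5 -0.18 and Cd36 0.32; leaving out each library gave Cldn5 -0.64 to 0.63, Tmem100 -0.43 to 0.73, Egfl7 -0.24 to 2.08, Cdh5 -0.18 to 1.78 and Cd36 -0.39 to 0.32. In PDAC liver against primary, quantile scaling gave Cldn5 -0.13 and Tmem100 -0.13, a pseudocount of 0.1 gave Pecam1 0.34, and leaving out each library gave Pecam1 -1.19 to 1.00. In PDAC against BC primary, quantile scaling gave Cdh5 0.16, Tek 0.18 and Cd36 0.41; Pecam1 was -0.51 with a pseudocount of 0.1 and -0.11 when rescaled without haemoglobin; leaving out each library gave Pecam1 -0.89 to 1.30 and Cdh5 -0.54 to 0.0104. With 1 PDAC lung library, the spread of that group cannot be measured.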
